A study of Mus musculus with 2 samples.

Results

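The 50 genes described here drive and restrain cell division: the cyclins, kinases and E2F factors of the G1/S step, the Myc genes, the inhibitors of the cycle, the machinery of DNA replication, and the genes of G2 and mitosis. They were taken by symbol from the probes of an expression array, by the current symbol or an older name of the same gene. Of the 50, 48 had a probe, and all 48 were detected, among 26076 genes detected in all. A gene counts as detected when, on both arrays, 1 or both pools gave a signal well above background by the scanner software's flag. Rrm1 and Tyms, which make DNA precursors, were matched to no probe and have no ratio here. The arrays list Cdt1 as Ris2, Aurka as Stk6, Mycn as Nmyc1 and Mycl1 as Lmyc1; the current symbol of Mycl1 is Mycl.

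RNA came from the posterior part of mouse embryos with 13 somites, the paired blocks of mesoderm that form in sequence from head to tail. One group was Cdx2+/-Cdx4-/-, heterozygous at Cdx2 and homozygous mutant at Cdx4, and the other was wildtype; the labels do not describe the alleles. Tissue of 7 embryos was pooled for each genotype, cut at the same axial level by the youngest somite border, and hybridised to a pair of dual-colour Agilent arrays in a dye swap. Replicate 1 held the mutant pool in Cy5 and replicate 2 held it in Cy3. The labels name no separate pools for the swap, so this is 1 pool per genotype: a difference has no replicate check between embryos, no p-value is given, and each error, an SD over the 2 arrays, is technical. In pooled tissue, fewer cells of a type and less RNA per cell cannot be told apart. As a check of the labels, Cdx4 had a log2 ratio of -2.52 ± 0.12 (SD of 2 arrays), while Cdx2 had -0.05 ± 0.09. The Cdx2 probe was dim, at a mean log2 intensity of 7.35, and its sign differed between arrays. The heterozygous Cdx2 label thus has no support from its RNA level here, and this level cannot speak against it either.

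Cdx2 and Cdx4 are homeodomain transcription factors of the posterior embryo, where dividing progenitors at the end of the trunk supply the elongating axis. Progress from G1 into S phase is set by D-type cyclins with Cdk4 or Cdk6 and by E-type cyclins with Cdk2, which phosphorylate the pocket proteins and release the E2F factors. E2F factors turn on genes of replication, while genes of G2 and mitosis are turned on later through the cell cycle homology region, a promoter element written CHR, often together with CCAAT boxes.

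Promoters of the replication and mitosis members carried different letters, and examples are printed because these groups are described apart below. Sequences are RefSeq promoters on GRCm38.p6, each 300 bases long, from 250 before to 50 after a gene's start, and 41 of the 50 members matched an entry, with 47 promoters. The E2F letters searched were TTTCCCGC, TTTGGCGC, TTTGCCGC and TTTCGCGC, which can overlap one another, and the CHR letters were TTTGAA, each on both strands. In the stretches below, capitals mark the E2F letters in Mcm5 (chr8:75109316-75109407, plus strand), Mcm6 (chr1:128359706-128359855, minus strand), Cdc6 (chr11:98907973-98908060, plus strand) and Cdc25a (chr9:109875472-109875559, plus strand).
Mcm5: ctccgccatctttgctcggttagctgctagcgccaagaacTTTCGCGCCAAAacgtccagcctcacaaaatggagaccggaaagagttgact
Mcm6: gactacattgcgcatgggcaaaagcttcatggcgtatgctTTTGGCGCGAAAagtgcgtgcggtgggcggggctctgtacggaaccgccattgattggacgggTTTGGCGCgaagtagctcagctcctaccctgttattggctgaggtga
Cdc6: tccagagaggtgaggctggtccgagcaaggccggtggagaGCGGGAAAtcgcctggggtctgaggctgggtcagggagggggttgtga
Cdc25a: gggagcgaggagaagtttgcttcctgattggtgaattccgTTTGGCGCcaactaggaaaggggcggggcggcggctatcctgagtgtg

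Capitals mark the CHR letters in Cdc20 (chr4:118437344-118437401, minus strand) and Top2a (chr11:99024190-99024252, minus strand), where the Top2a stretch holds them on the opposite strand. A second Top2a match, TTTGAA on the gene's own strand at -179 from the start, lies outside the stretch.
Cdc20: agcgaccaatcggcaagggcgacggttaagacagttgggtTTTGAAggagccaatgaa
Top2a: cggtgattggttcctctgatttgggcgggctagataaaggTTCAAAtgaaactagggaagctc

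E2F letters stood in 7 of the 14 promoters of replication genes, in 4 of 12 of the G1/S group and in 0 of 12 of the G2 and mitosis group. Over all 32851 promoters of the table, 2.26% held them. CHR letters stood in 7 of 12 promoters of the G2 and mitosis group (58.3%) and in 1 of 14 of the replication group, against 17.9% of all promoters. CCAAT, on either strand, stood in 83.3% of the mitosis promoters and 78.6% of the replication promoters, against 37.4% of all. A match is a run of letters in this window and says nothing of whether a factor binds there.

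Ratios of the members were small, though no smaller than those of genes in general. Their median absolute log2 ratio was 0.08, against 0.06 over all detected genes. A gene was counted as higher or lower when its log2 ratio, mutant over wildtype, reached 1.5-fold (0.58 on the log2 scale) in the same direction on each array. No member passed this size in either direction, against 0.211% of all detected genes higher (55 genes) and 0.23% lower (60 genes). With shares this low, 0 of 48 says little about the members. At 1.3-fold on each array 1 member was higher, Ccnd2, and 0 were lower, against 0.537% and 0.752% of all genes. At a lower size of 1.1-fold on each array (0.14 on the log2 scale), 6 of the 48 members were higher (12.5%) and 1 was lower (2.08%), against 3.32% and 4.78% of all genes. These 7 were Ccnd2, Mycl1, Ccne1, Cdc20, Cdk4 and Mcm6, higher in the mutant pool, and Cdc6, lower. Median centring in place of loess ended all 7 of these calls, leaving 1 other member higher (Cdc25b) and 0 lower, against 1.24% and 1.91% of all genes. Bright genes reach a given ratio on both arrays more often: of genes with a mean log2 intensity of at least 8, 5.49% were higher and 7.41% lower at the lower size, against 15.8% and 2.63% of the 38 members that bright.

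Signs were divided. Ratios were above 0 on each array for 15 members (31.25%) and below 0 on each for 9 (18.75%), against 23.3% and 24.4% of all genes, and the other 24 members had opposite signs on the arrays. The median log2 ratio of the 48 members was 0.02, with 0.00 over all genes, and it became -0.04 when arrays were centred on their median in place of loess. Of the members, 43 lay between the 5th and 95th percentiles of all genes, which were -0.21 and 0.17. The other 5, Ccnd2, Mycl1, Ccne1, Cdc20 and Cdk4, lay above the 95th, and 0 lay below the 5th.

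**Figure D1:**
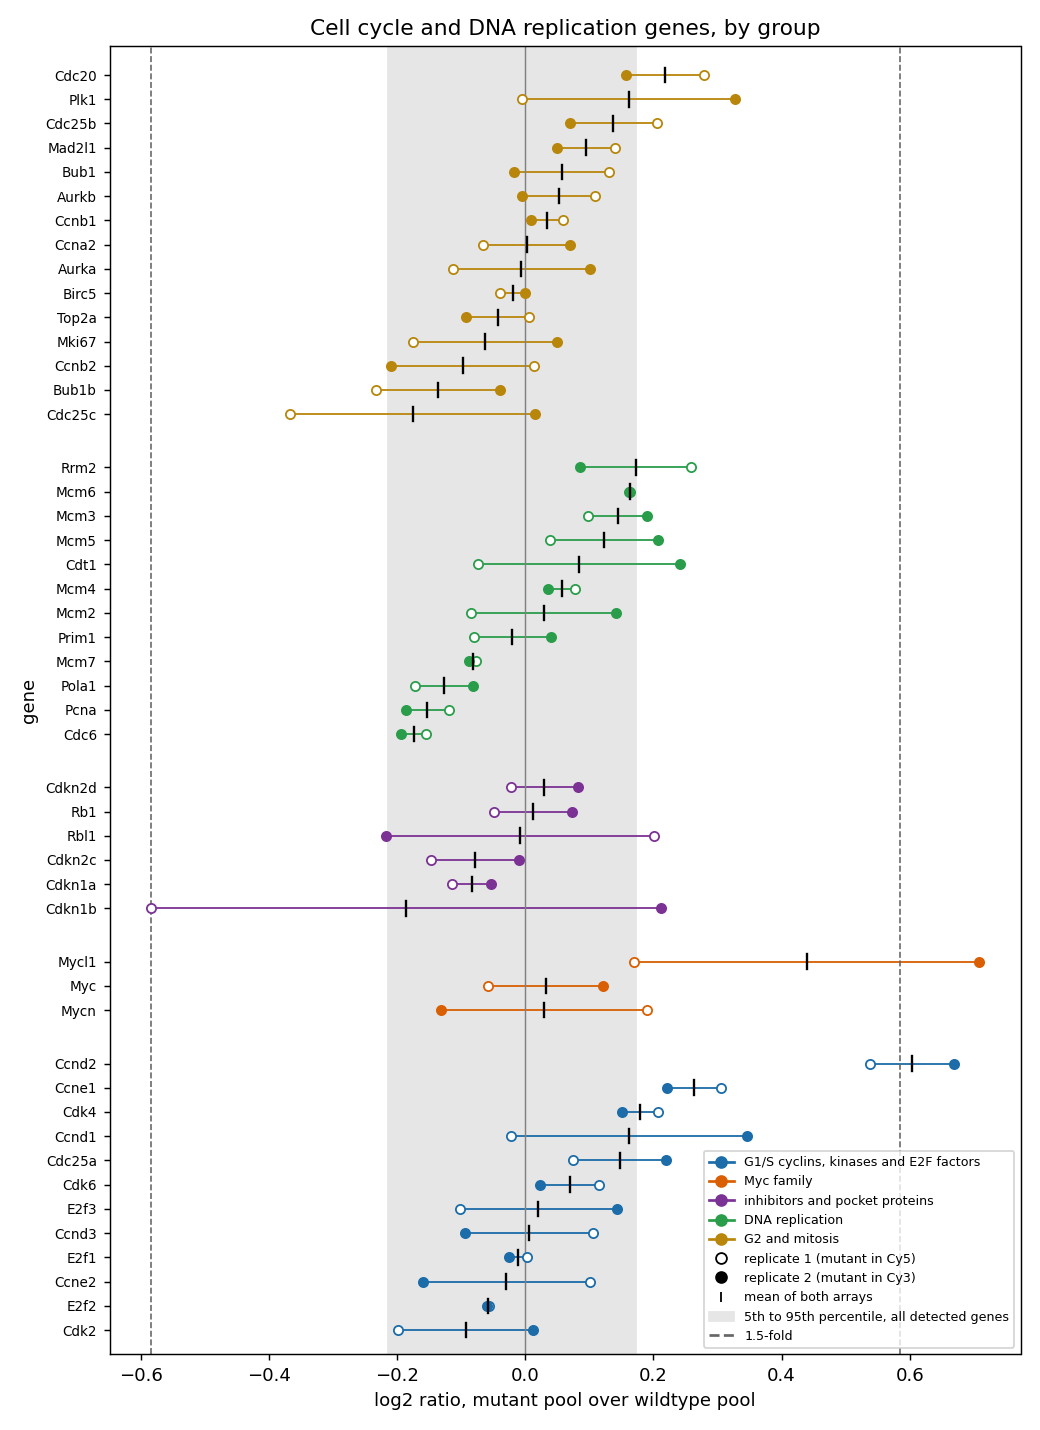
Log2 ratio, mutant over wildtype pool, of the 48 measured members by group; open points are replicate 1 (mutant in Cy5), filled points replicate 2 (mutant in Cy3), the tick is their mean, the grey band spans the 5th to 95th percentile of all detected genes and dashed lines mark 1.5-fold. Ccnd2, at 0.54 and 0.67, stands to the right of the other G1/S genes, and most members lie inside the band.

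Among the 12 G1/S genes, cyclin D2 stood apart. Ccnd2 encodes a D-type cyclin that activates Cdk4 and Cdk6. Its normalised log2 intensity was 11.95 in the mutant and 11.41 in the wildtype pool on replicate 1, and 11.98 against 11.31 on replicate 2. The mutant pool was the brighter on both arrays. The log2 ratios were 0.54 and 0.67, with a mean of 0.60 ± 0.09 (SD of 2 arrays), a 1.52-fold higher level. This was the 71st highest mean of the 26076 genes; replicate 1 alone kept it short of 1.5-fold on each array. Ccnd2 was read by a single probe, which the files place at chr6:127756366-127756425 without naming a genome build.

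The other D-type cyclins did not share this pattern. Ccnd1 had log2 ratios of -0.02 and 0.35 (mean 0.16 ± 0.26, SD of 2 arrays), so that replicate 2 alone carried its mean. A second Ccnd1 probe likewise gave -0.19 and 0.63. Ccnd3 had 0.11 and -0.09, with a mean of 0.01. The difference between Ccnd2 and the others was not tested, since there is 1 pool per genotype.

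Ccne1, the E-type cyclin that activates Cdk2, had log2 ratios of 0.31 and 0.22 (mean 0.26 ± 0.06, SD of 2 arrays). Its log2 intensities were 11.71 in the mutant against 11.40 in the wildtype pool on replicate 1, and 11.28 against 11.06 on replicate 2. The mutant pool was thus brighter within each array. A dimmer second Ccne1 probe gave 0.01 and 0.36, so the excess on replicate 1 rested on 1 probe. Its paralogue Ccne2 had 0.10 and -0.16.

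Cdk4, the kinase partner of the D-type cyclins, had log2 ratios of 0.21 and 0.15 (mean 0.18 ± 0.04, SD of 2 arrays), or 1.13-fold. Its log2 intensities were 14.39 against 14.18 on replicate 1 and 14.07 against 13.92 on replicate 2, mutant first. A dimmer Cdk4 probe disagreed on replicate 1, with -0.18 and 0.23, and the median over both probes was 0.10. Cdk6, the other D-cyclin kinase, had a mean of 0.07, and its second probe gave -0.09. Cdk2, the partner of E-type cyclins, had -0.20 and 0.01.

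Cdc25a, the phosphatase that activates Cdk2, had log2 ratios of 0.07 and 0.22 (mean 0.15 ± 0.10, SD of 2 arrays). The E2F activators stayed near 0, with means of -0.01 for E2f1, -0.06 for E2f2 and 0.02 for E2f3. E2f2 was the member of the G1/S group below 0 on each array, at -0.06 on both. In all, 5 of the 12 were above 0 on each array, 1 below and 6 of opposite sign. The group's median was 0.04, and it went to -0.00 under median centring.

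Of the 3 Myc genes, which encode transcription factors that promote growth and entry into the cycle, Mycl1 was higher. Its log2 intensities were 10.53 in the mutant against 10.37 in the wildtype pool on replicate 1, and 10.69 against 9.98 on replicate 2. The log2 ratios of 0.17 and 0.71 (mean 0.44 ± 0.38, SD of 2 arrays) differed widely between the dye orientations. A second Mycl1 probe gave 0.34 and 0.08, so each probe was above 0 on both arrays but the arrays ranked in opposite order. Mycn, the Myc gene best known from the early embryo and neural progenitors, had 0.19 and -0.13, and Myc had -0.06 and 0.12. Their means of 0.03 both fell below 0 under median centring.

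**Figure D2:**
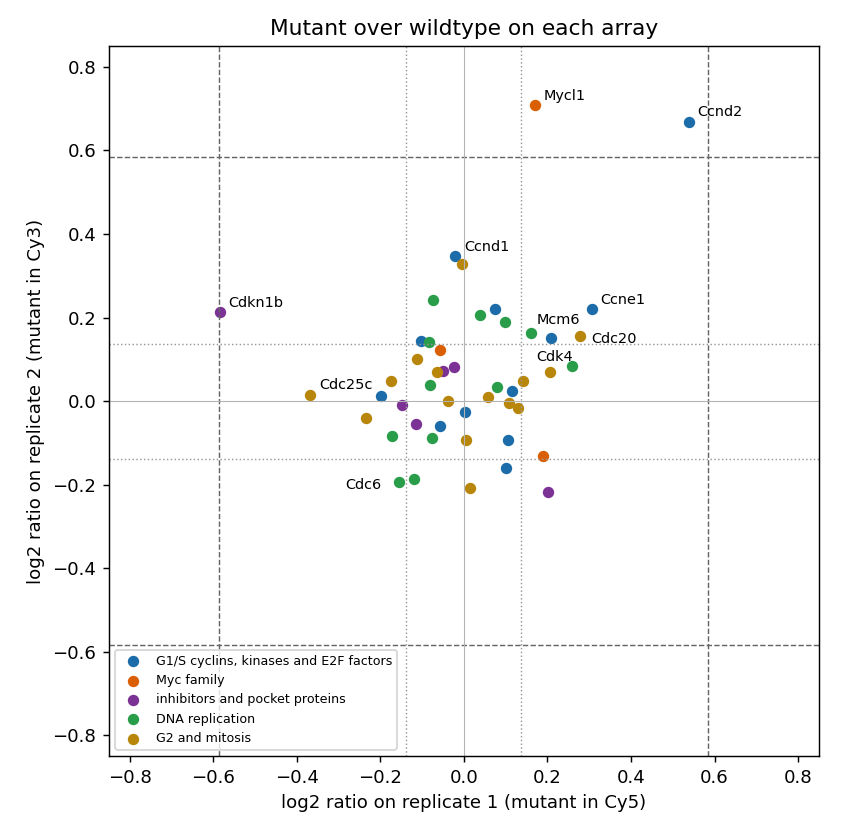
Log2 ratio of each of the 48 members on replicate 1 (x axis, mutant in Cy5) against replicate 2 (y axis, mutant in Cy3), coloured by group; dashed lines mark 1.5-fold and dotted lines 1.1-fold. Ccnd2 and Mycl1 lie apart at the upper right, Cdkn1b lies at -0.58 and 0.21, and 24 members lie in the quadrants of opposite sign.

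No inhibitor or pocket protein passed even the lower size. Cdkn1a, an inhibitor of cyclin-dependent kinases induced by p53, had log2 ratios of -0.11 and -0.05 (mean -0.08 ± 0.04, SD of 2 arrays). Cdkn1b, an inhibitor of the same family, had -0.58 and 0.21 (mean -0.19 ± 0.56), the widest disagreement between arrays among the members. Its log2 intensities were 6.09 in the mutant against 6.68 in the wildtype pool on replicate 1, and 6.33 against 6.12 on replicate 2. The wildtype pool was not well above background on replicate 2, and the arrays gave Cdkn1b opposite signs.

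Cdkn2c, which blocks Cdk4 and Cdk6, had log2 ratios of -0.15 and -0.01 (mean -0.08 ± 0.10, SD of 2 arrays), and its wildtype pool was not well above background on replicate 1. Cdkn2d, of the same family, had a mean of 0.03, and its second probe gave -0.10. The pocket proteins hold E2F factors in check: Rb1 had a mean of 0.01, and Rbl1 had 0.20 and -0.22. Of the 6 genes, 2 were below 0 on each array and 4 had opposite signs. Their median was -0.04, and replicate 2 alone put it at 0.03. The group is dim, with a median log2 intensity of 7.47, and its pooled SD between arrays was 0.27, against 0.16 over all members.

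The replication genes were split between small positive and small negative ratios. Of the 12 measured, 5 were above 0 on each array, 4 below and 3 of opposite sign, and the median was 0.04, with -0.04 under median centring. Mcm2 to Mcm7 encode the 6 subunits of the helicase that unwinds DNA at the fork. Mcm6 had log2 intensities of 12.06 in the mutant against 11.90 in the wildtype pool on replicate 1, and 11.93 against 11.77 on replicate 2. Its log2 ratio was 0.16 on both arrays, or 1.12-fold. Mcm3 (mean 0.14), Mcm5 (0.12) and Mcm4 (0.06) were above 0 on each array without reaching the lower size on both. Mcm7 was below 0 on each, at -0.08 and -0.09, and Mcm2 had -0.08 and 0.14. The 6 subunits thus did not share a sign, and the files place all 3 Mcm7 probes on chromosome 16 rather than that gene's chromosome.

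Cdc6 and Cdt1 load that helicase at origins in G1. Cdc6 was lower in the mutant pool, with log2 intensities of 9.88 against 10.03 on replicate 1 and 9.89 against 10.08 on replicate 2. Its log2 ratios were -0.16 and -0.19 (mean -0.17 ± 0.03, SD of 2 arrays), or 1.13-fold lower. The mutant pool was the dimmer within each array. Cdt1 had -0.07 and 0.24, with a mean of 0.08.

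Rrm2, a subunit of the ribonucleotide reductase that makes deoxynucleotides, had log2 ratios of 0.26 and 0.08 (mean 0.17 ± 0.12, SD of 2 arrays). Its 3 probes were all above 0 on average. Pcna, the sliding clamp of the replicative polymerases, had -0.12 and -0.19 (mean -0.15 ± 0.05). A second probe named Pcna, which the files place on chromosome 19 rather than 2, gave 0.10 and 0.22, the largest gap between probes among the members (0.31). Pola1, the catalytic subunit of the polymerase that starts DNA strands, had a mean of -0.13, and Prim1, its primase partner, had -0.02.

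Cdc20, which activates the anaphase-promoting complex at the exit from mitosis, was the G2 and mitosis gene that passed the lower size. Its log2 intensities were 13.00 in the mutant against 12.72 in the wildtype pool on replicate 1, and 13.01 against 12.86 on replicate 2. The mutant pool was the brighter within each array, and the log2 ratios were 0.28 and 0.16 (mean 0.22 ± 0.09, SD of 2 arrays). Over the 15 genes, 4 were above 0 on each array, 2 below and 9 of opposite sign. The median was 0.00, and it was -0.07 under median centring.

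The other mitotic genes had small or mixed ratios. Cdc25c, a phosphatase that activates Cdk1, had -0.37 and 0.02 (mean -0.18 ± 0.27, SD of 2 arrays). Plk1, a kinase of mitotic entry and spindle assembly, had -0.00 and 0.33 (mean 0.16 ± 0.24). In both, 1 array carried the mean. The mitotic cyclins had means of 0.00 for Ccna2, 0.03 for Ccnb1 and -0.10 for Ccnb2. Cdc25b, another activator of Cdk1, had 0.14.

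In the spindle checkpoint, which delays anaphase until chromosomes are attached, Bub1 had a mean of 0.06, Mad2l1 0.09 and Bub1b -0.14. Aurka, a spindle pole kinase, had -0.01, while Aurkb and Birc5, of the chromosomal passenger complex, had 0.05 and -0.02. Top2a, which untangles replicated DNA, had -0.04. Mki67, the widely used marker of proliferating cells, had log2 ratios of -0.18 and 0.05, with a mean of -0.06. Its probe was dim, at a mean log2 intensity of 6.99, where the offset of the background correction shrinks ratios. All mean ratios of this paragraph lay between the 5th and 95th percentiles of all genes.

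Ratios of members grouped by promoter letters are given as a description, with no test. The 13 measured members with E2F letters had a median log2 ratio of 0.02, from -0.17 in Cdc6 to 0.16 in Mcm6, and the 26 without had 0.02. Of the 13, 4 were above 0 on each array and 4 below. The 11 with CHR letters had a median of -0.01, with 1 above 0 on each array and 2 below, and the 28 without had 0.03, with 12 above and 7 below. The 27 with CCAAT had a median of 0.01 and the 12 without had 0.05. Mcm6 and Cdc6, both printed above with E2F letters, thus lay on opposite sides of 0. Ccnd2 had no promoter entry.

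Probes of the same gene agreed in sign in most cases. Of the 75 probes of members 74 were detected, and 24 members had more than 1. All probes of a gene had the same sign in 17 of these and opposite signs in 7, namely Pcna, Pola1, Ccnb2, E2f2, Cdkn2d, Cdk6 and Plk1. The median gap between the highest and lowest probe of a gene was 0.08, which is as large as the median absolute ratio of the members (0.08). The files place 5 of the probes on a chromosome other than the gene's, the 3 of Mcm7 and 1 each of Pcna and Plk1.

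**Figure D3:**
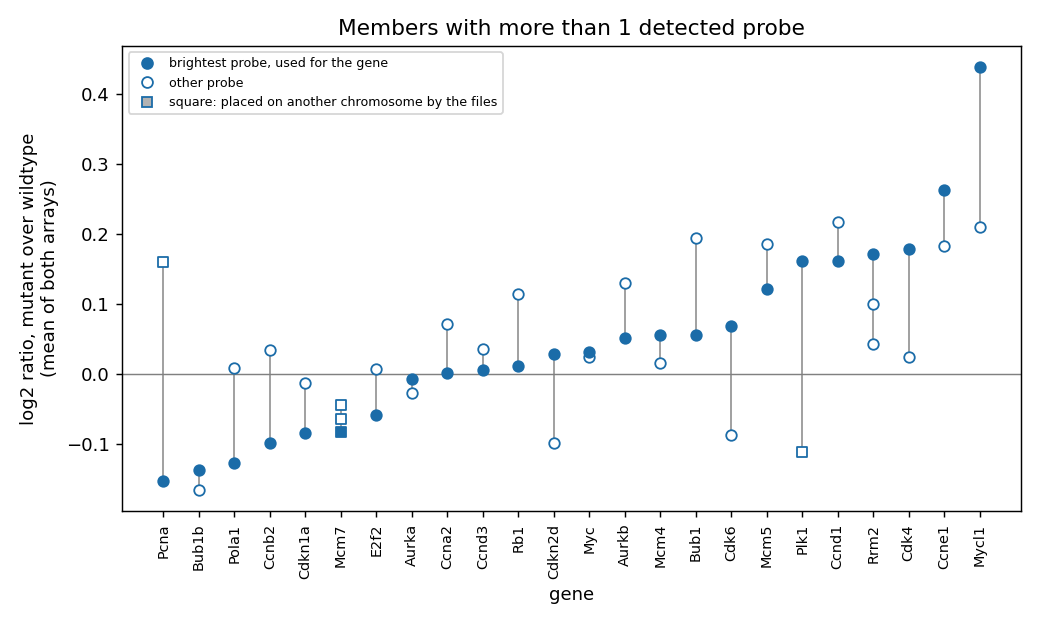
Mean log2 ratio, mutant over wildtype, of every detected probe of the 24 members with more than 1; filled symbols are the brightest probe, which stands for the gene, open symbols the other probes, and squares are probes that the files place on another chromosome. The probes of Mycl1, Ccne1 and Cdk4 are all above 0, while those of Pcna stand at -0.15 and 0.16.

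Among the cell cycle genes measured, the most negative mean ratios lay outside the 50 members, in the wider pathway. Of 113 further genes in 4 lists, 106 were detected. At 1.5-fold on each array 0 were higher, against 0.211% of all genes, and 1 was lower, against 0.23%, a count too small to describe the lists. That gene was Mybl2, a Myb factor that works with the regulators of G2 genes, with log2 ratios of -0.71 and -0.69 (mean -0.70 ± 0.02, SD of 2 arrays). Its log2 intensities were 7.21 and 7.26 in the mutant against 7.92 and 7.95 in the wildtype pool. Without background subtraction Mybl2 missed the size at -0.58 and -0.54. With an offset of 16 in the background correction it had -0.87 and -0.86, and by the scanner software's ratio -1.03 and -0.99.

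At 1.3-fold on each array 4 of the 106 were lower, Mybl2 and 3 more, and 0 were higher, against 0.752% and 0.537% of all genes. Median centring ended the 1.5-fold call of Mybl2, at -0.48 and -1.01, though not its call at 1.3-fold. It ended the calls of the 3 others, with -0.03 and -1.44 for Cdkn1c, -0.11 and -1.22 for Gadd45g, and -0.05 and -1.07 for Cdkn3. In each, replicate 1 fell short. The means of both arrays under median centring were -0.74 for Mybl2, -0.74 for Cdkn1c, -0.66 for Gadd45g and -0.56 for Cdkn3. Cdkn1c, a kinase inhibitor related to Cdkn1a and Cdkn1b, had log2 intensities of 12.33 and 12.14 in the mutant against 12.91 and 12.84 in the wildtype pool. Its log2 ratios were -0.58 and -0.70 (mean -0.64 ± 0.09, SD of 2 arrays), beside means of -0.08 and -0.19 for the members of its family. Gadd45g, a growth arrest gene, had -0.62 and -0.54 (mean -0.58 ± 0.06). Cdkn3, a phosphatase that acts on Cdk2, had -0.45 and -0.58 (mean -0.51 ± 0.09).

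Most of the wider lists stayed close to 0, with 92.5% of the 106 mean ratios within 0.2 of 0, against 90.6% of all genes. The next largest of the G1/S list was Tfdp2, a dimerisation partner of E2F factors, at -0.41. Of the 37 detected genes of the replication list, Rpa1, which coats single-stranded DNA, was at -0.19. In the mitosis list, Nek2, a centrosomal kinase, was at 0.27. At the lower size 4 of the 106 were higher and 8 lower, beside 3.32% and 4.78% of all genes. These lists are bright, with a median log2 intensity of 9.98. Of all genes with a mean log2 intensity of at least 8, 5.49% were higher and 7.41% lower. Neither count is thus read as a result about the lists. List medians were 0.02 for G1/S, -0.04 for inhibitors and checkpoints, 0.03 for replication and 0.01 for G2 and mitosis, with a median of 0.01 over the 106 genes.

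**Figure D4:**
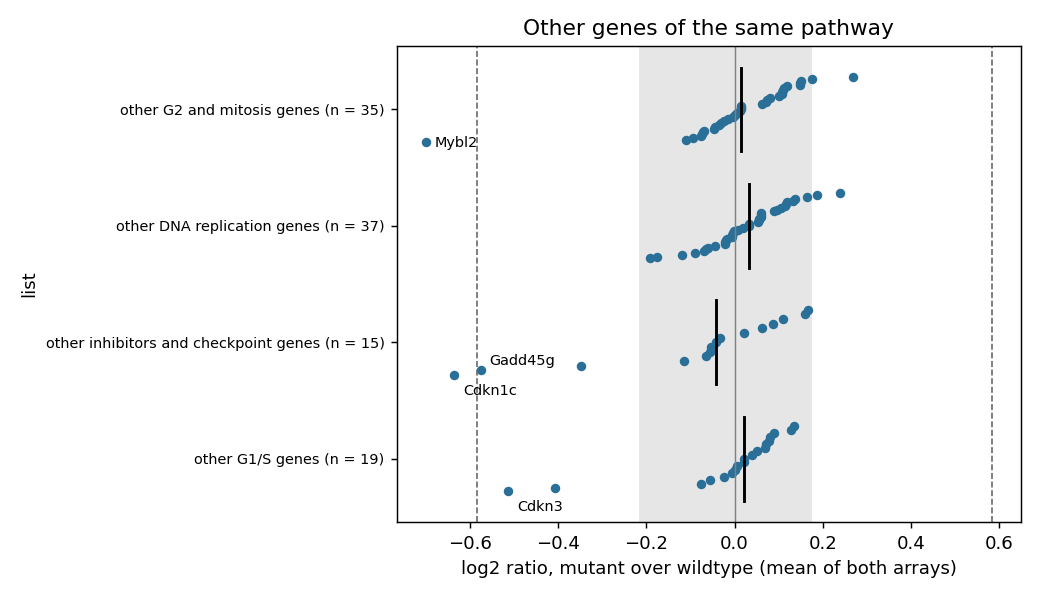
Mean log2 ratio, mutant over wildtype, of the 106 detected genes of 4 further pathway lists; each point is a gene, bars are list medians, the grey band spans the 5th to 95th percentile of all detected genes and dashed lines mark 1.5-fold of the mean. Mybl2 (-0.70), Cdkn1c (-0.64), Gadd45g (-0.58) and Cdkn3 (-0.51) lie to the left of the other genes.

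Several lists of markers of the tissues that a posterior cut can hold had larger median ratios than the cell cycle lists. The marker lists were fixed with earlier results of these data known, so their larger ratios are no test. All 9 posterior embryo markers were detected, with 2 lower and 0 higher at 1.5-fold and a median of -0.12. Of the 2, 1 is Cdx4 itself, a gene that the genotype label names as mutant. Of 5 detected somite markers 3 were higher (median 1.35), of 5 neural markers 1 (0.37) and of 6 gut endoderm markers 2 (0.27). The neural median is the value of Sox1, at 0.04 and 0.70. Of the neural markers 3 were above 0 on each array and 2 below, and their median was 0.04 on replicate 1 and 0.28 on replicate 2. The 2 gut markers counted were Nepn and Trh. Of the 6 gut markers 4 were above 0 on each array and 2 had opposite signs. All 8 endothelial markers were below 0 on each array, with 2 lower at 1.5-fold (median -0.43), and of 5 primitive blood markers 0 passed (-0.10). The part of these tissues in the members' values was not tested.

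The array's precision bears on ratios this small. Median signals were 146 to 159 against 91.3 to 113 at negative controls, and no member was saturated. Between arrays the pooled SD of a single array's log2 ratio was 0.16 for members and 0.19 for all genes. The median absolute value of the mean ratio was smaller in both, 0.08 for members and 0.06 for all genes. These are unlike measures, since a mean of 2 arrays varies less than 1 array. The 10 members with a mean log2 intensity under 8, among them E2f3, Ccne2, Cdk6, Cdc25b and Mki67, had a pooled SD of 0.21. Under median centring each of the 6 members higher at the lower size, other than Mycl1, was below 0 on replicate 2.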

How the data were processed

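Values come from 2 dual-colour arrays of a mutant and a wildtype pool of 7 embryos each, at 13 somites. The deposited intensity values are the mean brightness of each spot in Cy3 and Cy5 with the local background median, per the file headers, and are not normalized. A deposited log10 ratio, Cy5 over Cy3 as the scanner software corrected and dye-normalized it, served as an alternative. Agilent Feature Extraction is version 9.5.3 in the submitters' processing notes but 7.5.1 in the file headers.

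Intensities of 43430 spots were background-corrected with normexp at an offset of 50, which shrinks ratios of dim genes, and normalized by loess within each array in limma 3.58.1 (R 4.3.3), with control spots at weight 0. Spots flagged for non-uniformity were left out (205 and 90) and saturated spots were kept. Ratios were turned to mutant over wildtype by the labelled dyes. Spots were averaged to 41013 probes, and the brightest detected probe stood for a gene. Names came through accessions (19435 probes), symbols (3620) or synonyms (2908) of a RefSeq table of GRCm38.p6; 544 probes matched several genes and 14506 kept the file's name. Levels are normalised log2 intensities, and pools are compared within a probe and an array, since the arrays were not normalised to each other. Brightness over several probes is given only for precision. The steps were tested on simulated data.

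The 50 members, the pathway and marker lists, the size rules and the tests were chosen with earlier results of these data known. Every member is named, with both array values where it passed a size on both arrays or had one of the 3 largest absolute means of its group. Of the wider lists, genes past 1.5-fold or the 2 largest of a list are named. The value of 1 gene that this rule names is not reported here. Other values of both arrays, second probes and genes of small counts were chosen after their values were seen. Alternatives were no background subtraction, an offset of 16, median centring, the software's ratio, no detection filter, the median over probes, each array alone, other sizes and, added after seeing the data, probes on the gene's chromosome only.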

Additional observations from a re-analysis of the deposited data

How the results depend on the processing

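No member passed 1.5-fold on each array in either direction under the settings that use both arrays. Ccnd2 was the 1 member higher at 1.3-fold on each array, and the 1 higher at 1.5-fold by the mean of both arrays. With a single array, members higher at 1.5-fold ranged from 0 to 2 (Ccnd2 and Mycl1 on replicate 2), those higher at the lower size from 12 to 15, and those lower from 6 to 8. On a single array 17.4% to 17.9% of all genes were higher at that size and 19.0% were lower. Group medians on a single array ranged from 0.0829 to 0.0874 for G1/S, from 0.1215 to 0.1696 for the Myc genes and from -0.0752 to 0.0621 for replication.

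Median centring in place of loess left 1 member higher at the lower size (Cdc25b) and 0 lower. It gave medians of -0.0024 for G1/S, -0.0377 for the Myc genes, -0.0707 for G2 and mitosis and -0.0407 for all members, and put 13 of 48 members on the other side of 0. The median of all genes was then -0.02. Under it Ccnd2 had ratios of 1.06 and -0.03 and Cdc6 had 0.30 and -0.81, so the arrays diverged with the dyes. The members are bright, with a median log2 intensity of 10.3 against 7.25 for all genes; the cause of the divergence was not tested. The G1/S median was 0.0362 without background subtraction, 0.0612 with an offset of 16 and 0.0208 with the median over probes, under which G2 and mitosis had 0.0251; the cause was not tested.

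Single members moved by more than the SD of their arrays in 17 of 48 cases under median centring and in at most 6 under each other setting that uses both arrays. With the same probe, a single array cannot differ from the mean by more than that SD, so it is not judged this way. Replicate 2 alone put 9 of 48 members on the other side of 0, and replicate 1 alone put 13 there. Among all genes, the number higher at 1.5-fold was 167 with the software's ratio, 43 without background subtraction, 27 under median centring and 93 to 321 on a single array, against 55. No paired analysis was possible because there is 1 pool per genotype and no test between samples. The number of arrays, and signal over background for dim genes such as Cdkn1b, limit the precision.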

Other observations

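Further genes of the wider lists reached the lower size of 1.1-fold on each array and were named after their values were seen. Btg2, an antiproliferative gene, had log2 ratios of -0.37 and -0.33 (mean -0.35 ± 0.03, SD of 2 arrays). Chek1, the kinase of the replication checkpoint, had 0.18 and 0.14. Kif20a, a kinesin of cytokinesis, had 0.18 and 0.17. Pola2, a subunit of the same polymerase as Pola1, had -0.19 and -0.16. Of the 15 detected genes of the inhibitor and checkpoint list, 6 were above 0 on each array, 7 below and 2 of opposite sign. Paralogues of Gadd45g and Btg2 in that list were divided: Gadd45a had 0.15 and 0.07 and Btg1 had 0.02 and 0.15. Gadd45b, at -0.01 and -0.10, was below 0 on each array, as Gadd45g was.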
